A study of Mus musculus with 12 samples.

Results

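Epha2-indel722 lenses were compared with Epha2-null lenses by RNA-seq at postnatal day 7 (P7). The comparison takes the 6 libraries that the labels assign to these genotypes, 3 of each, out of 12 in the series. Each library was made from poly-A RNA of 6 pooled lenses, so a p-value here refers to the spread between pools. The other 6 libraries, 3 of Epha2-Q722 and 3 of wild type lenses, entered the fit to estimate that spread and are given as levels beside the contrast.

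Mice of both lines are labelled C57BL/6J, as are the other 2 groups. Epha2-indel722 mice are homozygous for an allele that arose in a single founder during CRISPR/Cas9 editing of a codon of the kinase domain, and the line was later bred onto C57BL/6J. Epha2-null mice came from a repository line on C57BL/6J in which the plasmid pMCIneo is inserted in exon 5 of Epha2, and reads from any part of the gene that is still transcribed were counted. Epha2-Q722 mice are homozygous for the intended substitution at that codon (Q722), from other founders of the same editing. Each mutant line therefore stands for 1 allele, and an effect of the allele cannot be told apart from DNA that was inherited with it.

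EPHA2 is a receptor tyrosine kinase that binds ephrin ligands on neighboring cells. The lens is built from a front sheet of epithelial cells and a mass of fiber cells, which elongate, fill with crystallins and lose their organelles while they pack into regular columns. EPHA2 sits in the membranes of both cell types, and loss of its function disturbs the order of the fiber cells.

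The indel722 allele lies in exon 13 of the 17 exons of Epha2, at chr4:141322203-141322412 on the + strand of mm10 (GRCm38, GENCODE vM21). The stretch around the edited codon is shown because it is the sequence in which the indel722 allele departs from the reference. The first line gives the reference bases of chr4:141322233-141322322, with the 58 bases that the allele lacks (chr4:141322256-141322313) in capitals. The second line gives the same window of the indel722 allele, built from the reference and the description of the allele, with the inserted base and the 3 codons read in its place, which include the 2 bases that the editing was designed to change, in capitals.
reference: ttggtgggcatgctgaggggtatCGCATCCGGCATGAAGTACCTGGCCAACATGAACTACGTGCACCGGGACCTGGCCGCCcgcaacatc
indel722: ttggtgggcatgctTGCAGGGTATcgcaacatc
Translation of the reference gave 977 residues and of the indel722 allele 958. The allele replaces 22 residues, from the edited one to residue 743, by 3 and then returns to the reading frame. The lost stretch holds the HRD motif of the catalytic loop, a sequence shared by protein kinases, whose first residue is at position 738.

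Epha2 itself was read in every library of both groups. Its level was 21.6, 19.97 and 20.4 normalized CPM (read counts scaled to the library size, with TMM factors) in Epha2-indel722 lenses, against 30.6, 36.2 and 36.9 in Epha2-null lenses. The highest Epha2-indel722 library lay below the lowest Epha2-null library. Epha2 was thus lower in Epha2-indel722 than in Epha2-null lenses, with a log2 difference of -0.74 (SE 0.091, adjusted p = 7.1e-06, edgeR's quasi-likelihood test with Benjamini-Hochberg adjustment over 8676 genes). Epha2-Q722 lenses held 45.0, 47.3 and 54.4 normalized CPM of Epha2 and wild type lenses 63.1, 51.4 and 56.0. Reads per gene do not show where in Epha2 they fell, so the null label could not be checked by an absent transcript.

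The 6 libraries held 18434188 to 20072832 counts in the Epha2-indel722 group and 15483875 to 17719581 in the Epha2-null group, and 99.3% to 99.4% of them fell in the listed genes. A count of 0 in a library allows up to 3 counts, which is 0.149 to 0.194 CPM here, and such floors cover counting error only. Over all genes, the Spearman correlation was 0.987 to 0.993 in the 6 pairs of libraries within a genotype and 0.975 to 0.979 in the 9 pairs between Epha2-indel722 and Epha2-null. The fiber cell markers Cryaa, Crybb1, Bfsp1, Bfsp2, Mip, Lim2 and Gja3 and the epithelial markers Pax6, Foxe3, Cdh1, Gja1 and Aqp1 were all present in the 6 libraries. No marker of red blood cells, macrophages and leukocytes, retina, pigmented epithelium, corneal epithelium or skeletal muscle was among the listed genes, which all exceed 3 CPM in at least 6 libraries.

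Of 8676 genes, 85 (0.98%) were called different, at an adjusted p of up to 0.05 with a 2-fold or larger difference. Of these, 39 (0.45% of all genes) were higher and 46 (0.53%) lower in Epha2-indel722 lenses. All 85 had 3 Epha2-indel722 libraries that did not overlap the 3 Epha2-null libraries, which was so for 27.7% of all genes. Without a minimum fold, 478 genes (5.51%) were higher and 377 (4.35%) lower at an adjusted p of at most 0.05, and 770 of these 855 were under 2-fold. The split rests on the scaling. When plain library totals replaced TMM, the median log2 difference of all genes moved to -0.11, against -0.01, 31 genes were called higher and 62 lower (33.3% higher, against 45.9% with TMM), and 213 were higher and 757 lower past the adjusted p (21.96% higher, against 55.9% with TMM).

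**Figure D1:**
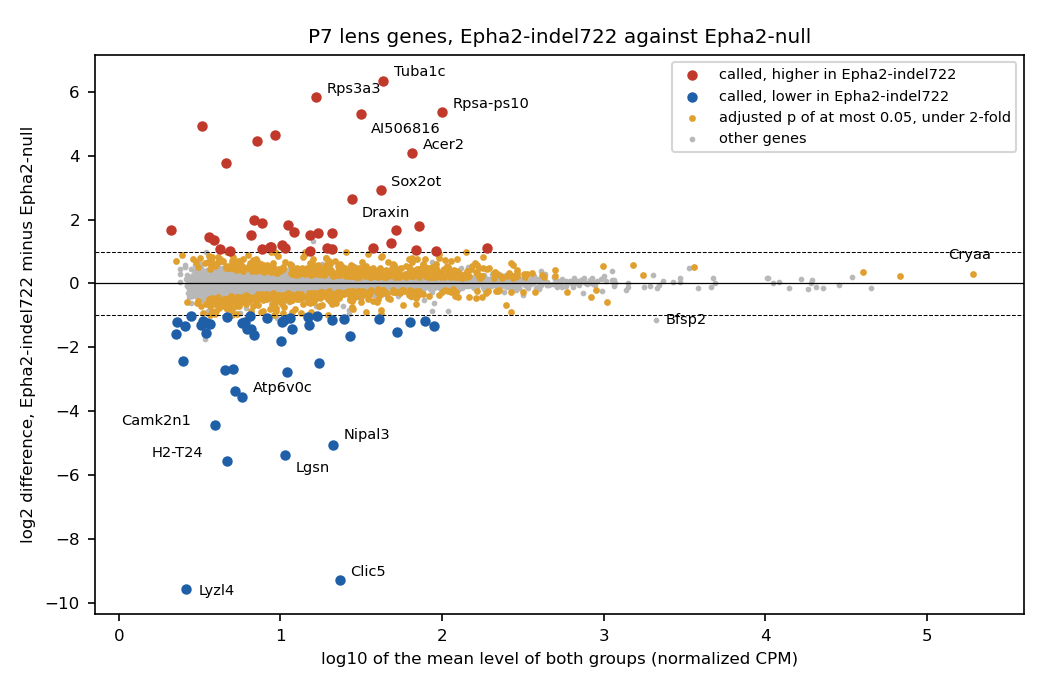
Log2 difference of each of 8676 genes, Epha2-indel722 minus Epha2-null, against the log10 of its mean normalized CPM in both groups. Red points are the 39 genes called higher and blue points the 46 called lower in Epha2-indel722 lenses, and the dashed lines mark a 2-fold difference. The largest differences belong to genes of low or middle abundance, while the crystallin gene Cryaa at the right edge lies at 0.31, well under 2-fold.

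Clic5 and Lgsn were among the genes with the largest fitted falls. Clic5 encodes a chloride intracellular channel protein tied to the cell cortex and to cilia. Its level was 0, 0.0493 and 0.172 normalized CPM in Epha2-indel722 lenses, against 27.3, 38.6 and 74.5 in Epha2-null lenses. The groups were far apart, and the Epha2-null libraries themselves spread over more than a 2-fold range. In all, 4 reads of Clic5 were counted in the 3 Epha2-indel722 libraries against 2522 in the 3 Epha2-null libraries, a ratio of 684 after division by the library sizes with TMM factors (95% interval 267 to 2512, counting error only). The fitted log2 difference was -9.29 (SE 0.89, adjusted p = 0.00024). Epha2-Q722 lenses held 91.9 to 153 normalized CPM of Clic5 and wild type lenses 143, 121 and 135, so that the Epha2-null libraries lay between Epha2-indel722 and wild type. Its log2 difference from wild type was -10.79 in Epha2-indel722 (adjusted p = 4.4e-05) and -1.51 in Epha2-null lenses (adjusted p = 0.028). These comparisons share the 3 wild type libraries.

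Lgsn encodes lengsin, a lens-specific protein of the glutamine synthetase superfamily that appears as fiber cells mature. It stood at 0.472, 0.542 and 0.459 normalized CPM in Epha2-indel722 lenses, against 15.1, 14.2 and 33.3 in Epha2-null lenses. The groups did not overlap, with a log2 difference of -5.38 (SE 1.22, adjusted p = 0.026). Epha2-Q722 lenses held 0.582, 24.6 and 18.6 normalized CPM of Lgsn and wild type lenses 83.2, 75.7 and 84.3, so that 1 Epha2-Q722 library lay near those of Epha2-indel722. The call for Lgsn was lost when any 1 of the Epha2-indel722 libraries, or Epha2-null replicate 1 or 3, was left out.

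Bfsp2 encodes CP49, a subunit of the beaded filament, the intermediate filament of fiber cells. Its level was 2352, 634 and 940 normalized CPM in Epha2-indel722 lenses, against 2845, 2894 and 2935 in Epha2-null lenses. The 3 Epha2-null libraries lay close together and the Epha2-indel722 libraries did not, with replicate 1 well above replicates 2 and 3. With that spread the log2 difference of -1.14 (SE 0.42) did not pass the test (adjusted p = 0.15), although it passed without Epha2-indel722 replicate 1, without robust estimation and with the edgeR exact test. Epha2-Q722 lenses held 3073, 3252 and 2244 normalized CPM of Bfsp2 and wild type lenses 3352, 3297 and 3468. Of 11 measured genes of intermediate filaments and their linkers, 1 was higher (Nes) and 1 lower (Lmna) past the adjusted p, with a median log2 difference of -0.01, and 1 was higher and 2 were lower with library totals. Lmna did not pass when any 1 of the 6 libraries was left out, nor with DESeq2. The methods of the study state that the edited lines were bred onto C57BL/6J because some inbred strains carry a deletion in this gene, and its part in these values was not tested.

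The groups of genes that follow are read beside all genes, of which 5.51% were higher and 4.35% lower past the adjusted p, with a median log2 difference of -0.01. Crystallins are the proteins that fill the fiber cells. Of 16 measured crystallin genes, 3 were higher past the adjusted p, 0 were lower and the median log2 difference was 0.08. Crybb1, a beta crystallin, averaged 45383 ± 514 normalized CPM in Epha2-indel722 and 35332 ± 1780 in Epha2-null lenses (SD, n = 3 each), a log2 difference of 0.36 (adjusted p = 0.0012). Cryaa, an alpha crystallin with chaperone activity, stood at 219471, 209856 and 214755 normalized CPM in Epha2-indel722 lenses, against 163332, 171149 and 186791 in Epha2-null lenses. Its libraries did not overlap, and its log2 difference was 0.31 (adjusted p = 0.0041). Cryba1 was the third, at 0.22 (adjusted p = 0.047), and did not pass in 11 of 16 alternative fits. Cryaa did not pass without robust estimation. Scaled to library totals instead, 0 of the 16 passed and the median turned to -0.03. With TMM, wild type lenses averaged 51780 normalized CPM of Crybb1 and 238279 of Cryaa, and Epha2-Q722 lenses 51862 and 216055. The log2 difference from wild type, also with TMM, was -0.55 for Crybb1 and -0.46 for Cryaa in Epha2-null lenses, both past the adjusted p. In Epha2-indel722 lenses it was -0.19 and -0.15, and neither passed. The TMM factors were 0.886 to 0.913 in the wild type libraries and 1.06 to 1.12 in those of Epha2-null. These differences from wild type were not fitted with library totals, so how far they rest on the scaling was not tested.

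Of 26 measured genes of fiber cell differentiation, 6 were higher and 1, Lgsn, was lower past the adjusted p, with a median of 0.18, and 3 were higher and 1 lower with library totals. Slc7a11, the cystine and glutamate exchanger that feeds glutathione synthesis, held 89.0, 84.5 and 63.0 normalized CPM in Epha2-indel722 lenses, against 25.2, 23.8 and 25.5 in Epha2-null lenses. It was 1 of 2 called genes of this group, with a log2 difference of 1.67 (SE 0.23, adjusted p = 0.0022). Levels of Slc7a11 were 79.1, 56.9 and 62.4 normalized CPM in Epha2-Q722 lenses and 19.8, 35.6 and 21.8 in wild type lenses. Lim2 encodes MP20, an abundant membrane protein of fiber cells, and held 4155, 4205 and 4481 normalized CPM in Epha2-indel722 lenses, against 2977, 3008 and 2976 in Epha2-null lenses. All 3 Epha2-indel722 libraries were above those of Epha2-null, by 0.52 on the log2 scale (adjusted p = 7.3e-06). Dnase2b, the lysosomal nuclease that degrades fiber cell DNA, was higher by 0.58 (adjusted p = 0.014), Hsf4, a heat shock transcription factor of the lens, by 0.28 (adjusted p = 0.011), Tmod1, which caps the slow-growing end of actin filaments, by 0.25 (adjusted p = 0.013), and Birc7, a protein of the apoptosis inhibitor family, by 0.23 (adjusted p = 0.014). Hsf4, Tmod1 and Birc7 did not pass with library totals, nor without 1 to 3 of the libraries in turn. The connexins and aquaporins, which join and feed fiber cells, held 7 measured genes, of which 0 passed in either direction.

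**Figure D2:**
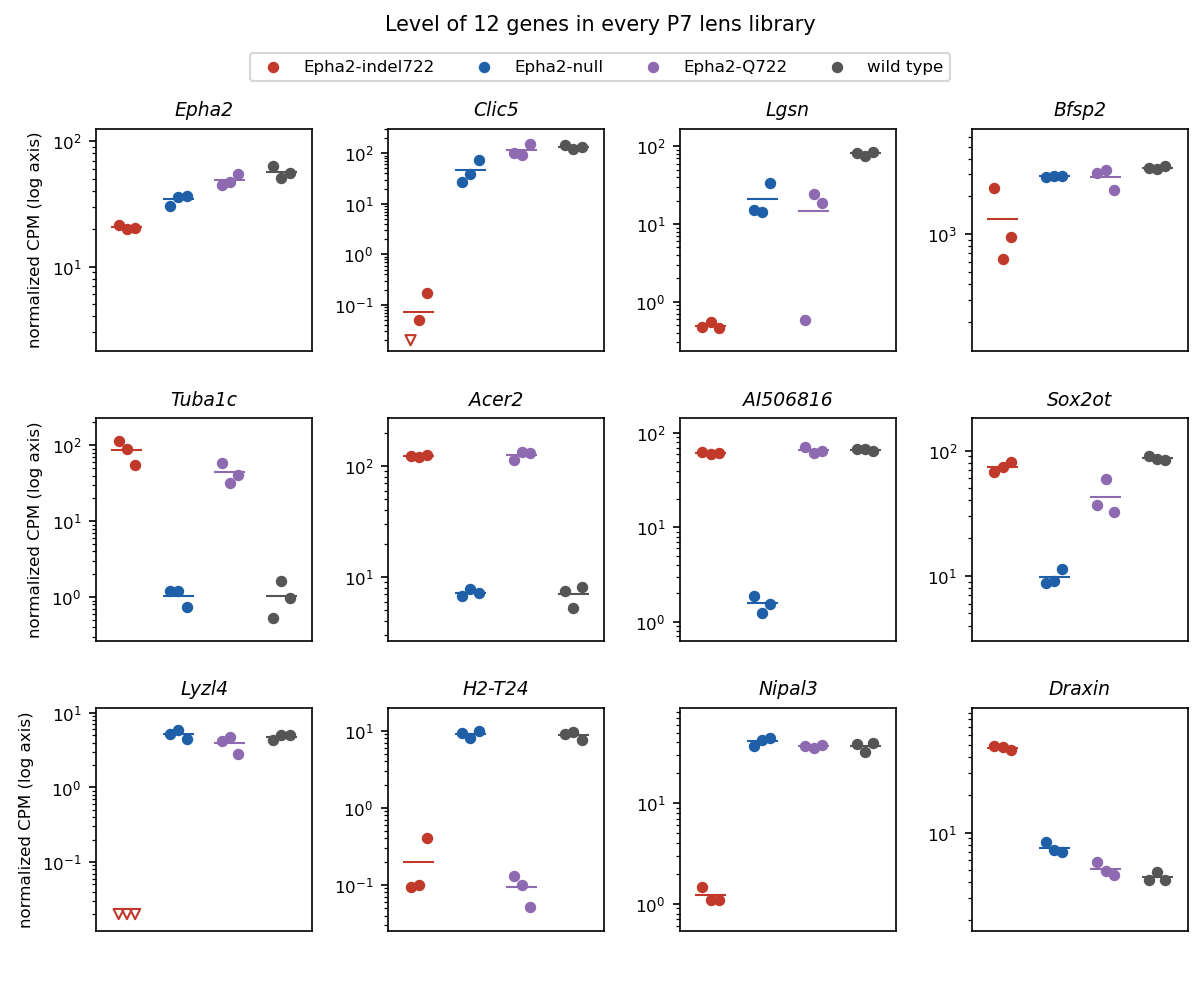
Normalized CPM of 12 genes (log axis) in each library of Epha2-indel722, Epha2-null, Epha2-Q722 and wild type lenses, with 3 points and a line at the mean per group; open triangles at the lower edge are libraries with 0 counts. Clic5, Lgsn, Lyzl4, H2-T24 and Nipal3 are low in the 3 Epha2-indel722 libraries, and AI506816 and Sox2ot are low in the 3 Epha2-null libraries.

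Among the EPH receptors, 6 of 14 were measured and Epha2 was the 1 that passed the test, lower in Epha2-indel722 lenses. Of the ephrin ligands 4 of 8 were measured, and 0 passed in either direction. Efna5, an ephrin-A that binds EPHA2, averaged 26.3 normalized CPM in Epha2-indel722 and 27.0 in Epha2-null lenses. Efnb2 averaged 52.3 in Epha2-indel722 and 57.1 in Epha2-null lenses. Of 21 signaling partners of EPHA2, 4 were higher and 1 was lower past the adjusted p (2 and 2 with library totals), with a median of 0.02. Acp1, a low molecular weight tyrosine phosphatase that acts on EPHA2, was higher by 0.66 (adjusted p = 0.00053), and Cttn, the actin-binding Src substrate cortactin, was higher by 0.45 (adjusted p = 1.9e-05). Cdc42, a small GTPase that controls actin and cell polarity, was the 1 that was lower, at -0.29. Cdc42 lies 3.98 Mb from Epha2, so an effect of the allele cannot be told apart from linked DNA.

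The cortical cytoskeleton and the junctions of fiber cells were represented by 38 and 23 measured genes. Of the first, 4 were higher and 0 lower past the adjusted p, with a median of -0.02, but 1 was higher and 2 were lower with library totals. Ank3, an ankyrin that ties membrane proteins to spectrin, held 124, 139 and 103 normalized CPM in Epha2-indel722 lenses, against 66.5, 76.7 and 66.3 in Epha2-null lenses. The groups were apart by 0.80 on the log2 scale (adjusted p = 4.5e-06), short of 2-fold. Sptbn1, a beta spectrin, was higher by 0.54 (adjusted p = 0.019). It did not pass with library totals or without any 1 of 4 libraries (Epha2-indel722 replicates 1, 2 and 3 and Epha2-null replicate 2).

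Of the junction genes 3 were higher and 1 was lower, with a median of 0.01, and 1 of each with library totals. Cdh4, the cadherin first found in retina, held 11.8, 13.9 and 13.1 normalized CPM in Epha2-indel722 lenses, against 27.7, 29.3 and 28.7 in Epha2-null lenses. It was called lower, with a log2 difference of -1.14 (SE 0.092, adjusted p = 5.0e-09). Cdh1, the cadherin of the lens epithelium, was higher by 0.35 (adjusted p = 0.0033), which did not pass with library totals, and Pcdh17, a protocadherin, was higher by 0.83 (adjusted p = 0.037), which did not pass when any 1 of 5 libraries (all but Epha2-indel722 replicate 1) was left out. Fscn1, which bundles actin, belongs to none of these groups. It was called at 1.01 and averaged 122 ± 10.9 normalized CPM in Epha2-indel722 and 60.9 ± 9.17 in Epha2-null lenses (SD, n = 3 each). It sits at the 2-fold threshold and was no longer called with library totals or without replicate 1 of either group.

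Tuba1c, an alpha tubulin, had the largest fitted rise of the comparison. It held 114, 89.0 and 55.0 normalized CPM in Epha2-indel722 lenses, against 1.19, 1.19 and 0.749 in Epha2-null lenses. The lowest Epha2-indel722 library was far above every Epha2-null library, with a log2 difference of 6.35 (SE 0.49, adjusted p = 5.6e-05). Epha2-Q722 lenses held 59.2, 31.9 and 40.5 normalized CPM of Tuba1c, and wild type lenses 0.527, 1.65 and 0.965, near those of Epha2-null. Of 12 measured tubulins 2 were higher and 2 were lower past the adjusted p (1 and 2 with library totals), with a median of 0.13. Tuba1a, another alpha tubulin, averaged 718 ± 42.0 normalized CPM in Epha2-indel722 and 962 ± 24.3 in Epha2-null lenses (SD, n = 3 each), at -0.42 on the log2 scale (adjusted p = 5.2e-05). Tuba4a was lower by 0.50 on the log2 scale (adjusted p = 0.0057), and Tuba1b, a further alpha tubulin, was higher by 0.22 (adjusted p = 0.038).

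Of 35 genes of cilium and centrosome, 1 was higher and 1 lower, with a median of -0.08. Stard9, a kinesin-related protein of centrioles, held 0.708, 0.740 and 0.919 normalized CPM in Epha2-indel722 lenses, against 4.43, 4.14 and 4.03 in Epha2-null lenses, and was called lower (log2 difference -2.42, adjusted p = 1.3e-07). Epha2-Q722 libraries, at 4.85, 4.15 and 3.27 normalized CPM of Stard9, resembled those of Epha2-null, and the wild type libraries, at 0.452, 1.12 and 0.454, those of Epha2-indel722. Bbs7, a subunit of the BBSome that carries cargo along cilia, was higher by 0.87 (adjusted p = 0.00067). Dcdc2a, a doublecortin domain protein of cilia, stood at 8.35, 7.54 and 7.92 normalized CPM in Epha2-indel722 and 8.74, 7.87 and 6.51 in Epha2-null lenses. These ranges overlapped, with a log2 difference of 0.04 (SE 0.13, adjusted p = 0.90), although both stood above the 0.905, 0.951 and 1.74 of Epha2-Q722 and the 1.13, 1.77 and 1.48 of wild type.

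Acer2, which encodes a Golgi ceramidase that splits ceramide into sphingosine and fatty acid, held 123, 121 and 126 normalized CPM in Epha2-indel722 lenses, against 6.69, 7.77 and 7.20 in Epha2-null lenses. Replicates were tight in both groups and the log2 difference was 4.09 (SE 0.11, adjusted p = 6.1e-16). Epha2-Q722 lenses, at 112, 134 and 131 normalized CPM of Acer2, stood at the level of Epha2-indel722, and wild type lenses, at 7.45, 5.30 and 8.18, at that of Epha2-null. Of 23 measured genes of ceramide and sphingolipid metabolism, 2 were higher and 0 lower, with a median of -0.01, and with library totals 1 was higher and 1 lower. The other member was Cers5, a ceramide synthase, at 0.31 (adjusted p = 0.033), which did not pass in 7 of 16 alternative fits. Cholesterol synthesis had 1 gene higher (Acat2) and 2 lower of 25, and 0 and 3 with library totals. Acat2 did not pass with library totals, nor without Epha2-indel722 replicate 1 or 3 or Epha2-null replicate 1. Sc5d, a sterol desaturase, was lower by 0.43 on the log2 scale (adjusted p = 0.0031).

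Among ion channels and calcium handling genes, chloride channels had 1 higher and 2 lower of 15 (1 and 3 with library totals). Besides Clic5, Ano1, a calcium-activated chloride channel, was lower, by 0.65 on the log2 scale (adjusted p = 0.0037), while Clcn6, a chloride transporter of endosomes, was higher by 0.56. Clcn6 lies 6.71 Mb from Epha2, so an effect of the allele cannot be told apart from linked DNA. Cation channels and calcium handling had 2 higher and 4 lower of 20 (1 and 5 with library totals), with a median of -0.09. Cacna1h, a T-type calcium channel, held 1.37, 1.28 and 1.72 normalized CPM in Epha2-indel722 lenses, against 4.08, 3.42 and 3.57 in Epha2-null lenses, and was called lower (-1.35, adjusted p = 4.3e-05). Camk2n1, which blocks the calmodulin-activated kinase CaMKII, held 0.330, 0.197 and 0.517 normalized CPM in Epha2-indel722 lenses, against 6.75, 6.68 and 9.04 in Epha2-null lenses. It was called lower at -4.43 (SE 0.27, adjusted p = 4.9e-11), and its wild type libraries, at 3.01, 3.35 and 2.10, lay between both groups. Epha2-Q722 libraries held 6.46, 5.16 and 4.65 normalized CPM of Camk2n1.

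The annexins, which bind membranes in the presence of calcium, and S100 proteins had 1 higher and 2 lower of 10, and 0 higher and 5 lower with library totals. Anxa5 held 9.72, 10.2 and 8.96 normalized CPM in Epha2-indel722 lenses, against 20.4, 18.2 and 21.3 in Epha2-null lenses (log2 difference -1.05, adjusted p = 2.2e-07). Anxa3 held 10.6, 11.6 and 11.3 normalized CPM in Epha2-indel722 lenses, against 19.9, 19.4 and 28.8 in Epha2-null lenses (-1.02, adjusted p = 0.00014). Epha2-Q722 lenses held 19.3, 14.3 and 17.5 normalized CPM of Anxa5 and 17.9, 19.2 and 16.1 of Anxa3, and wild type lenses 9.47 to 11.4 of Anxa5 and 7.94 to 10.4 of Anxa3. For both genes the Epha2-null and Epha2-Q722 libraries were above those of wild type. Both sit close to 2-fold and fell below it when Epha2-null replicate 3 was left out, Anxa3 also without Epha2-indel722 replicate 1.

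The lens capsule and other extracellular matrix genes had 3 higher and 2 lower of 31, but 1 higher and 3 lower with library totals. Lamb2, a laminin chain of basement membranes, held 14.1, 14.3 and 14.2 normalized CPM in Epha2-indel722 lenses, against 5.84, 6.32 and 6.34 in Epha2-null lenses, and was called higher (1.20, SE 0.11, adjusted p = 2.5e-08). Emilin1, an elastic fiber glycoprotein, was just under 2-fold lower, at -0.96 (adjusted p = 3.7e-09). Axon guidance genes had 5 higher and 1 lower of 19, and 2 of each with library totals. The largest was Draxin, a secreted guidance cue and Wnt antagonist, at 49.5, 47.9 and 45.6 normalized CPM in Epha2-indel722 lenses, against 8.45, 7.31 and 6.97 in Epha2-null lenses. It was called at 2.65 (SE 0.090, adjusted p = 3.5e-16), and Epha2-Q722 and wild type lenses were low as well, between 4.14 and 5.82. Sema3f, a secreted semaphorin, was higher by 0.85 (adjusted p = 1.1e-05).

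Of 11 neuronal and neuroendocrine genes, 2 were higher (Insm1 and Grik5) and 1, Syt11, was lower, with a median of 0.26, and 1 was higher and 1 lower with library totals. Insm1, a zinc finger factor of neuroendocrine cells, was called at 1.68 (3.11, 3.20 and 3.27 normalized CPM in Epha2-indel722 and 1.08, 0.829 and 1.09 in Epha2-null lenses). Syt11, a synaptotagmin, was lower by 0.30 on the log2 scale (adjusted p = 0.0038).

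Other large rises were outside this group. AI506816, a long non-coding RNA, held 62.4, 60.3 and 61.0 normalized CPM in Epha2-indel722 lenses, against 1.87, 1.24 and 1.56 in Epha2-null lenses (log2 difference 5.30, adjusted p = 1.1e-20). Sox2ot, the long non-coding RNA that overlaps the lens and neural factor gene Sox2, held 67.3, 73.2 and 81.4 normalized CPM in Epha2-indel722 lenses, against 8.79, 9.12 and 11.4 in Epha2-null lenses (2.92, SE 0.23, adjusted p = 5.9e-05). Epha2-Q722 lenses held 61.5 to 72.0 normalized CPM of AI506816 and wild type lenses 65.2 to 68.0, so that the Epha2-null libraries alone were low. Epha2-Q722 lenses held 36.7, 58.7 and 32.3 normalized CPM of Sox2ot, below the 84.4 to 90.4 of wild type and above Epha2-null. Grik3, a kainate receptor subunit, was called higher at 1.85 (17.3, 17.7 and 17.4 normalized CPM in Epha2-indel722 and 4.82, 4.40 and 5.36 in Epha2-null lenses). Nes, the nestin gene counted above with the intermediate filaments, was called higher at 1.15 (13.6, 13.8 and 8.04 normalized CPM in Epha2-indel722 and 5.05, 5.70 and 5.36 in Epha2-null lenses).

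Immune genes were sparse. Of 11 measured genes of MHC class I and antigen processing 0 were higher and 2 lower (0 and 4 with library totals), and of 6 interferon response genes 0 were higher and 2 lower. H2-T24, a class I gene of the T region, held 0.0944, 0.0986 and 0.402 normalized CPM in Epha2-indel722 lenses, against 9.47, 8.03 and 9.91 in Epha2-null lenses. In all, 11 reads were counted against 494, a ratio of 48.7 after division by the library sizes with TMM factors (95% interval 27.0 to 98.2, counting error only). Its log2 difference was -5.56 (adjusted p = 1.7e-13). Epha2-Q722 lenses held 0.0511 to 0.129 normalized CPM of H2-T24 and wild type lenses 7.55 to 9.65. Wdfy1, an adaptor of Toll-like receptor signaling, held 4.62, 2.76 and 3.56 normalized CPM in Epha2-indel722 lenses, against 9.64, 8.19 and 7.72 in Epha2-null lenses (-1.22, adjusted p = 3.3e-06), and both were above the 0.753, 1.12 and 0.965 of wild type, as were the 9.18, 9.16 and 8.42 of Epha2-Q722. The class I genes are close copies of each other, so counts of 1 member are uncertain.

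Lyzl4, a lysozyme-like gene known from testis, had 0 reads in the 3 Epha2-indel722 libraries and 283 in the 3 Epha2-null libraries. With 3 counts as the floor over the group's 3 libraries it was at least 102-fold lower in Epha2-indel722 lenses. Nipal3, a magnesium transporter family member, held 1.46, 1.08 and 1.09 normalized CPM in Epha2-indel722 lenses, against 36.8, 42.7 and 44.1 in Epha2-null lenses (log2 difference -5.07, SE 0.13, adjusted p = 2.5e-18). Epha2-Q722 and wild type lenses held 32.0 to 39.8 normalized CPM of Nipal3, so the Epha2-indel722 libraries were the ones that stood apart.

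Wnt and planar cell polarity had 2 higher and 6 lower of 29 (0 and 6 with library totals), among them the receptors Fzd4 at -0.60 (adjusted p = 0.013) and Fzd7 at -0.47 (adjusted p = 0.0044), the coreceptor gene Lrp6 at -0.37, the kinase-like receptor gene Ror1 at -0.46 and the transcription factor gene Tcf7l2 at -0.53 (adjusted p = 0.0059). Fzd4 did not pass without Epha2-indel722 replicate 2 or Epha2-null replicate 3, nor Tcf7l2 without Epha2-null replicate 2. Lrp6 and Ror1 did not pass without Epha2-indel722 replicate 1, nor Lrp6 without Epha2-null replicate 3 and Ror1 without Epha2-null replicate 2. FGF receptors and ERK feedback had 1 of each direction in 17 (0 higher and 3 lower with library totals), with Spry1, an inhibitor of receptor tyrosine kinase signaling, at -0.78 (adjusted p = 2.2e-07). Glutathione and antioxidant genes had 5 higher and 3 lower of 32 (2 and 6 with library totals), and Gsta4, a glutathione transferase, was called higher at 1.45 (adjusted p = 0.00014). Lysosome and autophagy genes had 3 higher and 2 lower of 35 (1 and 5 with library totals), with the protease gene Ctsl at 0.65 and the cholesterol exporter gene Npc1 at -0.65. The unfolded protein response had 0 higher and 1 lower of 21 (0 and 3 with library totals), the cell cycle 0 higher and 1 lower of 20, and lens epithelium genes 1 of each of 18 (0 and 3). Heat shock and immediate early genes had 1 higher and 2 lower of 11 (0 and 2), with the chaperone gene Hspa8 at -0.57 (adjusted p = 0.00046). Of 14 imprinted genes 1 was higher and 2 were lower, and 2 of these were called, the non-coding RNA gene Rian (1.37) and the retrotransposon-derived Peg10 (-1.22).

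**Figure D3:**
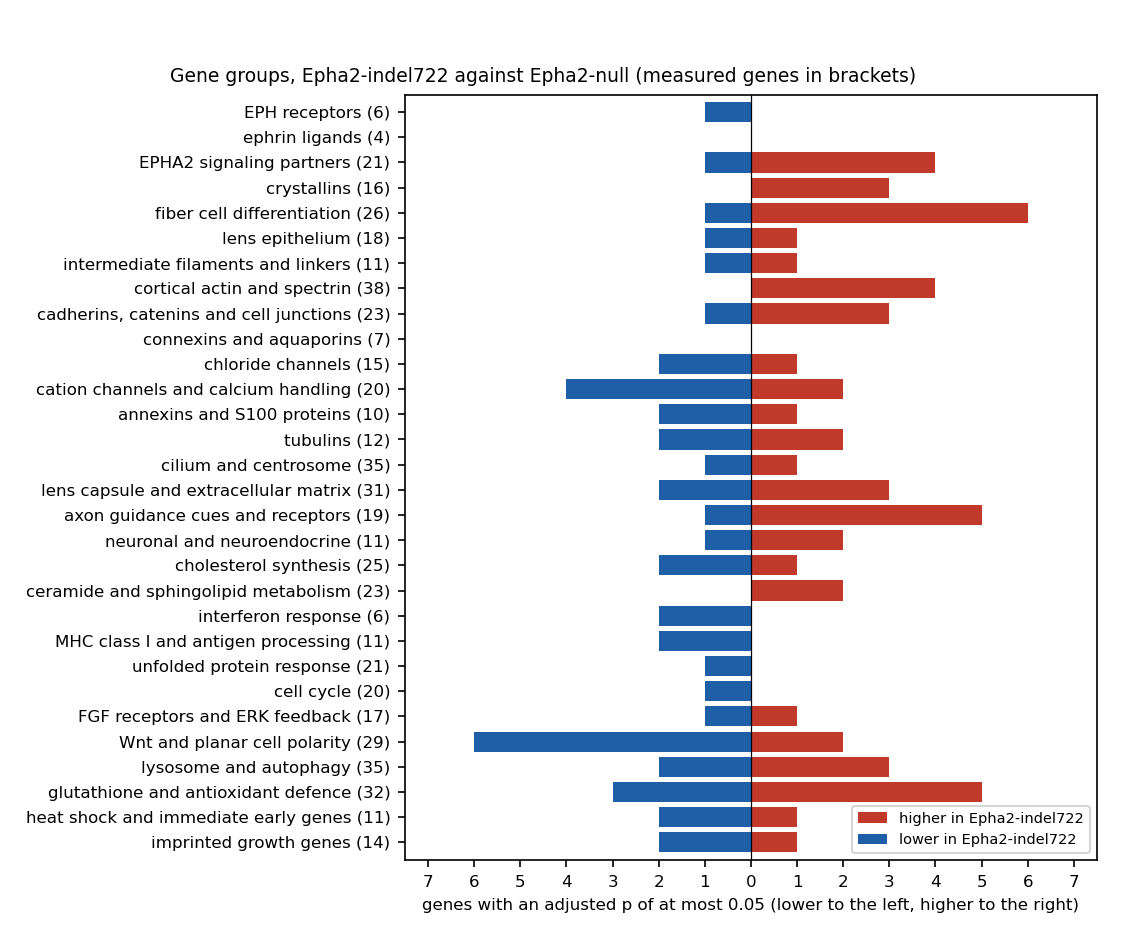
Number of genes in each group with an adjusted p of at most 0.05, higher in Epha2-indel722 to the right in red and lower to the left in blue, with the number measured in brackets. Fiber cell differentiation has 6 higher and 1 lower of 26, and Wnt and planar cell polarity 2 higher and 6 lower of 29.

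Cells around the lens left few marker transcripts. Of 10 markers of pericytes and smooth muscle 4 were measured, and they summed to 89.3 to 114 normalized CPM in the Epha2-indel722 libraries, against 121 to 213 in those of Epha2-null, with 0 past the adjusted p. Among them Acta2, smooth muscle actin, stood at 59.2, 51.1 and 73.7 normalized CPM in Epha2-indel722 and 79.7, 89.7 and 165 in Epha2-null lenses. Its log2 difference of -0.86 (adjusted p = 0.11) passed without robust estimation, with DESeq2 and with the edgeR exact test. The 2 measured of 10 endothelial markers summed to 10.3 to 12.2 normalized CPM in the Epha2-indel722 libraries and 9.76 to 12.4 in those of Epha2-null, with 0 past the adjusted p. The 3 measured of 11 markers of glia and fibroblasts summed to 70.7 to 81.0 normalized CPM in the Epha2-indel722 libraries and 76.4 to 78.0 in those of Epha2-null, also with 0 past it. In whole lenses, fewer cells of a type and less RNA per cell cannot be told apart.

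All 7 called pseudogenes were higher in Epha2-indel722 lenses, out of 79 tested (8.86%), beside 0.98% of all genes called. Atp6v0c-ps2 held 16.6, 18.4 and 18.6 normalized CPM in Epha2-indel722 lenses, against 0.738, 0.725 and 0.634 in Epha2-null lenses. Its parent Atp6v0c, the proton channel subunit of the vacuolar ATPase, went the other way, at 1.04, 0.937 and 0.747 normalized CPM in Epha2-indel722 lenses, against 9.93 to 11.2 in Epha2-null lenses. The log2 differences were 4.66 and -3.54, and the sum of both averaged 18.8 ± 1.0 normalized CPM in Epha2-indel722 and 11.4 ± 0.68 in Epha2-null lenses (SD, n = 3 each).

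Hmga1b and Hmga1, which encode a chromatin protein that bends DNA, made a similar pair. Hmga1b held 6.56, 6.41 and 6.03 normalized CPM in Epha2-indel722 lenses, against 0.170, 0.207 and 0.230 in Epha2-null lenses, and Hmga1 averaged 9.20 ± 1.57 in Epha2-indel722 and 17.6 ± 1.96 in Epha2-null lenses (SD, n = 3 each). Their sum averaged 15.5 ± 1.84 in Epha2-indel722 and 17.8 ± 1.97 in Epha2-null lenses. Eif3j2 and Eif3j1, copies of a translation initiation factor subunit gene, moved in the reverse order, with Eif3j2 called lower at -3.35 (adjusted p = 1.3e-10) and Eif3j1 higher by 0.69 (adjusted p = 1.4e-06). Their sum was 28.0 ± 0.56 normalized CPM in Epha2-indel722 and 26.3 ± 1.23 in Epha2-null lenses. Eif3j2 averaged 0.936 normalized CPM in Epha2-indel722 and 0.802 in wild type lenses, against 9.58 in Epha2-null and 7.71 in Epha2-Q722 lenses. Eif3j1 averaged 27.1, 24.9, 16.7 and 18.9 in the same order, so for both genes Epha2-indel722 lenses lay nearer to wild type than Epha2-null lenses did.

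The parents of the ribosomal protein copies differed less than the copies did. Rpsa-ps10 held 197, 197 and 191 normalized CPM in Epha2-indel722 lenses, against 4.77, 4.77 and 4.67 in Epha2-null lenses, while Rpsa averaged 536 ± 8.63 in Epha2-indel722 and 573 ± 9.34 in Epha2-null lenses. The call for Rpsa-ps10 (5.36, SE 0.85, adjusted p = 0.0045) was not made by DESeq2 but was kept in the fit of the 6 libraries alone. The main fit and DESeq2 used all 12 libraries, of which those of Epha2-Q722 held 6.79, 7.26 and 62.6 normalized CPM of Rpsa-ps10. Rps3a3 held 49.3, 31.6 and 17.2 normalized CPM in Epha2-indel722 lenses, against 0.738, 0.674 and 0.288 in Epha2-null lenses (5.83, adjusted p = 0.00060). Rps3a1 was lower, at -0.43 (adjusted p = 0.010), which did not pass without Epha2-null replicate 3. The sum of Rpsa-ps10 and Rpsa averaged 731 normalized CPM in Epha2-indel722 and 578 in Epha2-null lenses. That of Rps3a3 and Rps3a1 went the other way, at 184 in Epha2-indel722 and 204 in Epha2-null lenses. So did that of Rpl14-ps1 and Rpl14, at 314 in Epha2-indel722 and 357 in Epha2-null lenses. Epha2-Q722 libraries resembled those of Epha2-indel722 for Atp6v0c-ps2 (18.1 to 20.6 normalized CPM), Atp6v0c (0.851 to 1.33) and Rps3a3 (32.7 to 57.6). Rpl14-ps1, Rpsa-ps10 and Hmga1b did not show this likeness. Rpl14-ps1 held 8.08, 9.61 and 14.4 normalized CPM in Epha2-Q722 lenses, below the 24.3 to 26.5 of Epha2-indel722, and Rpsa-ps10 was also lower. Hmga1b was higher, at 11.2 to 12.5 normalized CPM against 6.03 to 6.56 in Epha2-indel722. Wild type lenses held 8.21 to 8.42 normalized CPM of Rpl14-ps1, 5.73 to 6.53 of Rpsa-ps10 and 0.0753 to 0.397 of Hmga1b. Reads of near-identical copies can be assigned to either copy, and their levels are uncertain for that reason. The counting is also not stated to use strand, so the antisense genes Gm13091 and E530011L22Rik, both called lower, cannot be told from genes that overlap them.

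**Figure D4:**
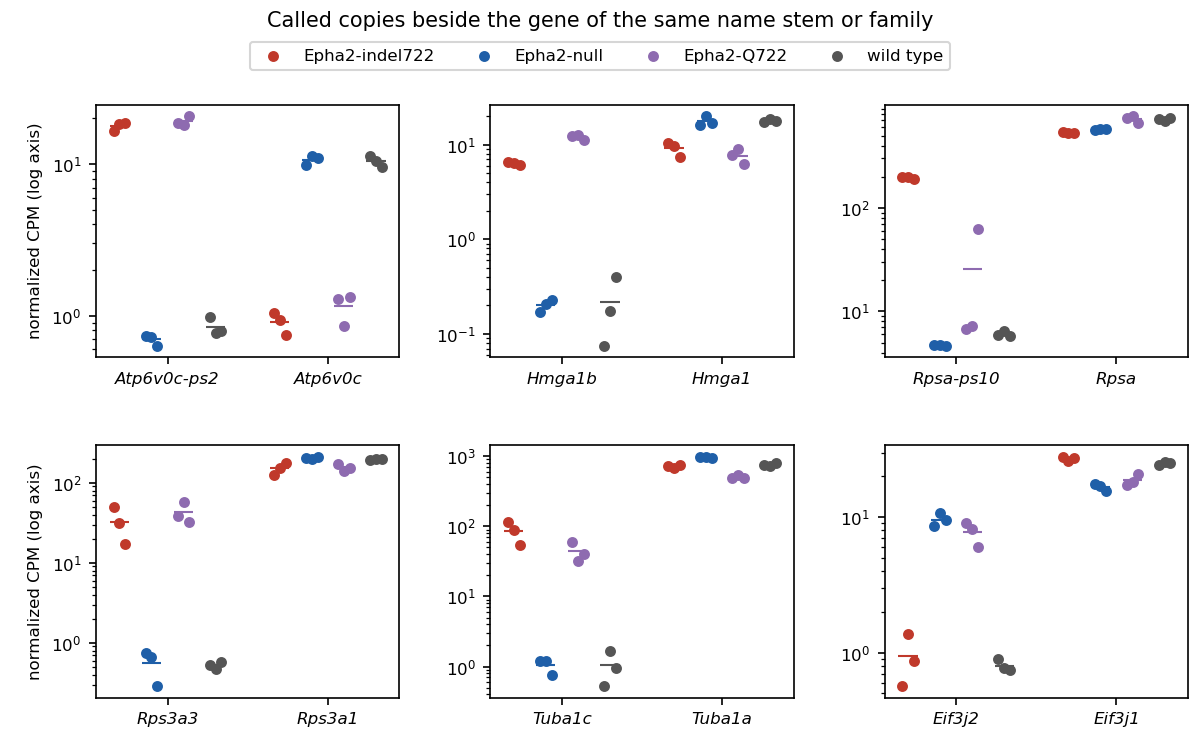
Normalized CPM (log axis) of 6 called genes, at the left of each panel, and of a gene of the same name stem or family, at the right. Points are the libraries of Epha2-indel722, Epha2-null, Epha2-Q722 and wild type lenses, with lines at the means. Atp6v0c-ps2 is high where Atp6v0c is low, while Rpsa changes little beside Rpsa-ps10.

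By chromosome, chromosome 9 had 14 called of 491 tested (2.85%), chromosome 4 had 16 of 574 (2.79%) and chromosome 17 had 9 of 407 (2.21%), and on each other chromosome at most 1.29% were called. Together these 3 chromosomes held 39 called genes, 9 higher and 30 lower, and all others 46, of which 30 were higher and 16 lower. Chromosome 4 carries Epha2. Within 10 Mb of it 8 of 141 genes were called (5.67%) and 44 (31.2%) passed the adjusted p, and on the rest of chromosome 4 these were 8 of 433 (1.85%) and 82 (18.9%). Over all genes 9.85% passed the adjusted p.

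Of the 8, Draxin was higher and 7 were lower in Epha2-indel722 lenses. Besides Nipal3 and Camk2n1 these were Hmgn2, a nucleosome-binding protein gene, Paqr7, a membrane progestin receptor gene, Efhd2, which encodes a calcium-binding actin regulator, Fhad1 and Gm13091. Efhd2 lies nearest, 0.551 Mb from Epha2 between gene centers, and held 24.4, 25.8 and 31.8 normalized CPM in Epha2-indel722 lenses, against 68.9, 76.7 and 87.3 in Epha2-null lenses (-1.51, adjusted p = 6.5e-08). Its neighbor Fhad1 starts 15.5 kb beyond the end of Efhd2 and was also lower (-1.59, adjusted p = 2.1e-05). Paqr7, 6.81 Mb to the other side, held 14.1, 12.5 and 13.1 normalized CPM in Epha2-indel722 lenses, against 40.9, 40.2 and 42.1 in Epha2-null lenses (-1.63, adjusted p = 6.6e-14). Both lines were selected for an allele of Epha2, so an effect of the allele and a difference in linked DNA cannot be told apart for these genes.

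**Figure D5:**
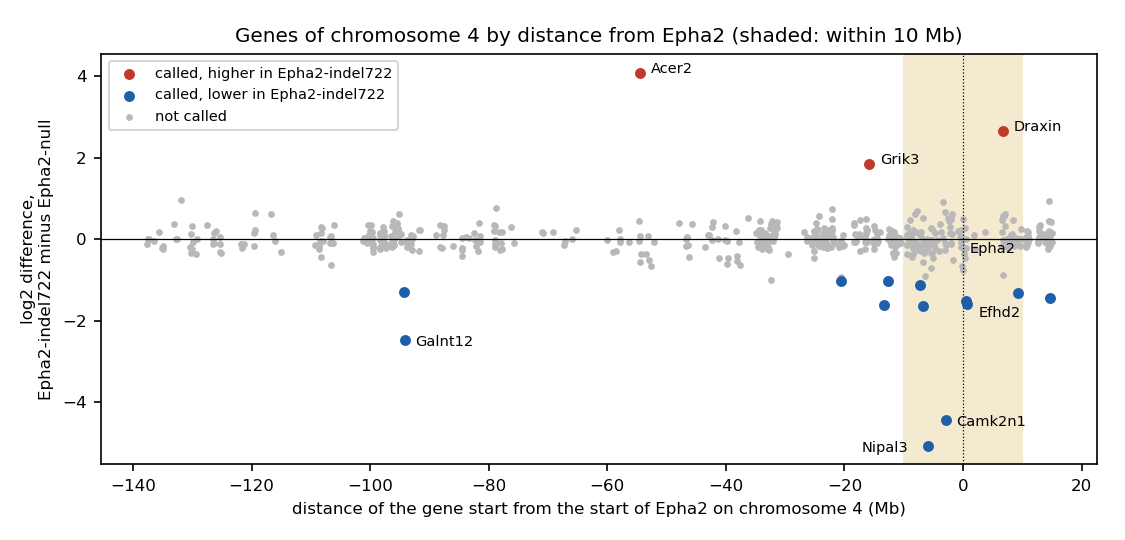
Log2 difference, Epha2-indel722 minus Epha2-null, of the 574 tested genes of chromosome 4 by distance of the gene start from that of Epha2, with called genes in red (higher) and blue (lower). The shaded 10 Mb on either side of Epha2 hold 8 called genes, 7 of them lower in Epha2-indel722 lenses.

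Further called genes, named here after their values were seen, were of several kinds. Gpd1l, a glycerol-3-phosphate dehydrogenase-like gene, held 109, 113 and 115 normalized CPM in Epha2-indel722 lenses, against 34.0, 31.4 and 31.8 in Epha2-null lenses (log2 difference 1.80). Epha2-Q722 lenses held 113 to 140 normalized CPM of Gpd1l and wild type lenses 144 to 147. Ralgds, an exchange factor for Ral GTPases, held 271, 243 and 261 normalized CPM in Epha2-indel722 lenses, against 115, 119 and 125 in Epha2-null lenses (1.11). Cx3cl1, the chemokine fractalkine, held 22.9, 24.3 and 20.5 normalized CPM in Epha2-indel722 lenses, against 7.49, 8.03 and 8.06 in Epha2-null lenses (1.52). These 3 genes were higher in Epha2-indel722 lenses in every library. Pygl, the liver form of glycogen phosphorylase, held 35.3, 34.4 and 46.3 normalized CPM in Epha2-indel722 lenses, against 78.9, 84.3 and 104 in Epha2-null lenses (-1.20). Rab6b, a Golgi GTPase, held 2.78, 3.01 and 2.64 normalized CPM in Epha2-indel722 lenses, against 18.6, 19.8 and 19.1 in Epha2-null lenses (-2.76). Galnt12, which starts O-linked glycosylation, held 5.24, 4.44 and 6.20 normalized CPM in Epha2-indel722 lenses, against 27.6, 27.0 and 33.5 in Epha2-null lenses (-2.48). These were lower in every Epha2-indel722 library. Gcg, the glucagon gene, held 64.7, 45.9 and 35.2 normalized CPM in Epha2-indel722 lenses, against 110, 122 and 95.4 in Epha2-null lenses, and its call (-1.17, adjusted p = 0.010) was lost without Epha2-indel722 replicate 3 and in the fit of the 6 libraries alone. Gm6472, a pseudogene called at 1.98 (adjusted p = 0.035), lost its call in 8 of 16 alternatives. Of the 85 calls, 65 were kept in every alternative in which the gene was tested and 20 were lost in at least 1.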

How the data were processed

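Poly-A RNA of P7 lenses was sequenced as paired ends from 12 libraries. According to the labels and the methods, the authors mapped them to mm10 (STAR 2.5.3a), filtered alignments (SAMtools 1.4.1) and counted reads per gene (HTSeq 0.11.0); the annotation release and strand setting are not given in the sources used here. The deposited table holds, per library, whole counts of 8676 genes and CPM (counts scaled to the library total), and every gene exceeds 3 CPM in at least 6 libraries. Its log2 fold changes, average log2 CPM and p-values are those of the authors' own comparisons and were not used. All 12 libraries were used and 0 sample columns were left aside. Full totals were recovered from the deposited counts and CPM. For 14 genes whose symbol had become a date, it was taken from the Ensembl ID, and 8675 genes had a position in GENCODE vM21.

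The quasi-likelihood test of edgeR 4.0.16 (functions glmQLFit, robust, and glmQLFTest, run under R 4.3.3 with limma 3.58.1) was applied to the counts in 1 fit of all 12 libraries with TMM factors and genotype as the only factor (8 residual degrees of freedom), for the contrast Epha2-indel722 minus Epha2-null and, as context, against wild type. filterByExpr was applied and removed 0 genes. Adjusted p-values follow Benjamini-Hochberg over 8676 genes and log2 differences use a prior count of 0.125. Standard errors are the log2 difference divided by the root of the F statistic. Normalized CPM include the TMM factors, between 0.945 and 1.06 for Epha2-indel722 libraries and between 1.06 and 1.12 for Epha2-null libraries. Precision is given by the spread of 3 pools per group. The script was tested on simulated data.

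The members and the gene lists were chosen with earlier results of these data known. Named are Epha2, the genes whose transcripts the study discusses, the 15 largest called rises and falls among genes without overlap whose mean reaches 1 normalized CPM in either group, called members of the lists, called genes within 10 Mb of Epha2, and of each list described the 2 members past the adjusted p with the largest absolute log2 difference. Named after their values were seen were the partner genes of called copies, Bfsp2, further list members and the genes said to be so in the text. No list was tested as a set. Alternatives were a fit of 6 libraries, DESeq2 1.42.0, the edgeR exact test, library totals, RLE factors, TMM without the 20 most abundant genes, no filter, a minimum of 10 normalized CPM, no robust estimation, a replicate block, and leaving out each library.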

Additional observations from a re-analysis of the deposited data

Results flagged for a closer look

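For 18 of the 85 called genes the 3 wild type libraries lay between the other groups. Every Epha2-indel722 library was then on one side of all wild type libraries and every Epha2-null library on the other. The share of all genes with this order is not given, so the count of 18 has no background beside it. At an adjusted p of at most 0.05, 5 of the 18 (Rab6b, Lgals3bp, Paqr7, Camk2n1 and Ralgds) differed from wild type in both lines. Another 10 differed in Epha2-indel722 but not in Epha2-null lenses, 2 (Insm1 and Rian) in Epha2-null but not in Epha2-indel722 lenses, and Peg10 in neither. Whether the shift from wild type differs between the lines was not tested apart from the contrast of Epha2-indel722 with Epha2-null itself, and both shifts share the wild type libraries. Higher in Epha2-indel722 lenses, with wild type between, were Rpsa-ps10 (log2 difference of Epha2-indel722 from Epha2-null 5.36), Atp6v0c-ps2 (4.66) and Gm9825 (4.45), all pseudogenes, Insm1 (1.68), Bckdhb (1.57), Gsta4 (1.45), Rian (1.37), Lamb2 (1.20), Nes (1.15) and Ralgds (1.11). Lower in Epha2-indel722 lenses, with wild type between, were Camk2n1 (-4.43), Rab6b (-2.76), Lgals3bp (-2.68), Galnt12 (-2.48), Paqr7 (-1.63), C1qtnf12 (-1.43), Vwa5a (-1.33) and Peg10 (-1.22). Lgals3bp, a secreted glycoprotein that binds galectin 3, held 1.23, 1.38 and 1.49 normalized CPM in Epha2-indel722 lenses, 8.34, 8.19 and 9.79 in Epha2-null lenses and 7.38, 5.36 and 6.08 in wild type lenses. Vwa5a held 56.3, 50.7 and 45.2 in Epha2-indel722 lenses, 121, 127 and 135 in Epha2-null lenses and 104, 98.0 and 101 in wild type lenses. For Vwa5a the difference of Epha2-null from wild type did not pass (0.34, adjusted p = 0.31). Bckdhb, a subunit of the branched-chain ketoacid dehydrogenase, held 25.5, 33.7 and 34.6 in Epha2-indel722 lenses, 9.25, 10.8 and 11.5 in Epha2-null lenses and 13.6, 12.2 and 14.1 in wild type lenses. Here too the difference of Epha2-null from wild type did not pass (-0.34, adjusted p = 0.14).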

How the results depend on the processing

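The count of 85 called genes ranged from 84 to 93 over 9 other fits of all genes and from 81 to 88 when a library was left out (37 to 47 higher, 41 to 49 lower). A minimum of 10 normalized CPM left 5528 genes, of which 55 were called, 31 higher and 24 lower. Library totals in place of TMM gave 213 genes higher and 757 lower past the adjusted p, against 478 and 377. Without 1 library these were 333 to 521 higher and 255 to 342 lower, and the log2 difference of Epha2 was -0.82 to -0.69. Of the genes named with a difference, 2 that did not pass turned round, Dcdc2a (0.04), at -0.05 with library totals and -0.06 without Epha2-null replicate 3, and Efna5 (-0.04), at 0.01 without Epha2-indel722 replicate 1. A replicate block gave 87 called genes, 40 higher and 47 lower, and Epha2 at -0.74. The labels do not say whether the replicate numbers pair the samples. Deviations of same-numbered Epha2-indel722 and Epha2-null libraries correlated at -0.14, 0.10 and -0.11. These cannot decide it, because each deviation is taken from a mean of only 3 libraries. Of the 85 calls 18 were lost when some library was left out. DESeq2 called 89 genes and the edgeR exact test 91. Genes below the listing limit of 3 CPM in 6 libraries were not analysed here, and 30 called genes had a mean under 10 normalized CPM in both groups.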
